A study of Mus musculus with 12 samples.

Results

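Acly, Acss2, Acss1 and Acat1 encode 4 enzymes that make or exchange acetyl-CoA outside the pyruvate dehydrogenase step. They were taken as a listed group, by symbol, from the authors' table of their own comparison and joined by gene identifier to the count table. All 4 were found among the 56748 genes of that table, and all 4 were among the 15688 genes with enough reads to be tested. The data are bulk RNA sequencing of mouse CD8+ T cells, with 12 libraries in 4 groups of 3. In experiment 2, the groups were cells expanded with DCA and untreated cells from Pmel-1 mice, whose genotype tag gives the background B6.Cg-Thy1a/Cy with the transgene Tg(TcraTcrb)8Rest/J. In experiment 1, they were cells expanded with DCA and untreated cells from mice whose strain tag is OT-1 and whose genotype tag is C57BL/6-Tg(TcraTcrb)1100Mjb/J, although the sample titles say Pmel-1. Both transgenes give a fixed T cell receptor. Each mouse gave a DCA library and an untreated library, and each experiment had 3 mice, whose age is not given in the sources used here.

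All groups shared the same culture apart from the peptide, its dose and DCA. Whole spleen cells received their peptide for 24 hours (1 uM gp100 for pmel-1, 250 nM SIINFEKL for OT-1). They then grew in IL-2 medium for 6 more days, the DCA arm at 5 mM, until a CD8 sort on day 7. DCA, dichloroacetate, inhibits the kinases that switch off pyruvate dehydrogenase. Libraries held 28039699 to 41051066 counted reads. The beta segment Trbv14 of the Pmel-1 receptor reached 1680 to 2580 CPM in experiment 2 and had 0 counts in experiment 1. Trbv12-1, which belongs to the beta family of the OT-1 receptor, lay at 0.0588 to 0.493 CPM in experiment 2 and at 202 to 236 CPM in experiment 1, which is the pattern of the strain tags and not of the titles. CPM here is a normalised read count, a gene's share of its library scaled by TMM, which corrects library totals for differences in RNA composition. Of the CD8 T cell markers, Cd8a was at 335 to 662 CPM over the 12 libraries, while Cd4 stayed at or below 0.701 CPM. The experiments differed at once in strain tag, peptide and library naming, and the labels mention 2 technical batches without listing their libraries, so these cannot be told apart.

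Acetyl-CoA is the carbon donor for fatty acid and sterol synthesis and for protein acetylation, but it does not cross the inner mitochondrial membrane. Citrate does, and in the cytosol ATP citrate lyase (Acly) splits it into acetyl-CoA and oxaloacetate. Acetyl-CoA synthetases instead attach free acetate to coenzyme A, in the cytosol and nucleus (Acss2) or in the mitochondrial matrix (Acss1). Acat1 is a mitochondrial thiolase that interconverts acetoacetyl-CoA and acetyl-CoA in ketone body use, and it also acts in isoleucine breakdown. In CD8+ T cells, citrate and acetate are both known sources of the acetyl groups placed on histones.

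The genes lie on 3 chromosomes, Acly (ENSMUSG00000020917) on 11, Acss2 (ENSMUSG00000027605) and Acss1 (ENSMUSG00000027452) on 2, and Acat1 (ENSMUSG00000032047) on 9. Promoter windows were available for Acly, Acss2 and Acss1 from RefSeq (GRCm38.p6), covering 250 bases before the start and 50 after it. No window was available for Acat1. The Acly window is chr11:100527951-100528250 on the minus strand, that of Acss2 is chr2:155517793-155518092 on the plus strand, and that of Acss1 is chr2:150668191-150668490 on the minus strand. Capitals mark matches, on either strand, to the CCAAT box (letters CCAAT), the GC box (letters GGGCGG), the E-box (letters CACGTG) or the core of a sterol regulatory element (letters TCACNCCAC).
Acly: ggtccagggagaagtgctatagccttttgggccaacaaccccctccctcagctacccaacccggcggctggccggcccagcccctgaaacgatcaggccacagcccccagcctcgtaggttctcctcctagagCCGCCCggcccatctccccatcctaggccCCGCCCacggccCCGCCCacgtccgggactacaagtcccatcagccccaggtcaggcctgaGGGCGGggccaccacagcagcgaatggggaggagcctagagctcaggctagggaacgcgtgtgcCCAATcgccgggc
Acss2: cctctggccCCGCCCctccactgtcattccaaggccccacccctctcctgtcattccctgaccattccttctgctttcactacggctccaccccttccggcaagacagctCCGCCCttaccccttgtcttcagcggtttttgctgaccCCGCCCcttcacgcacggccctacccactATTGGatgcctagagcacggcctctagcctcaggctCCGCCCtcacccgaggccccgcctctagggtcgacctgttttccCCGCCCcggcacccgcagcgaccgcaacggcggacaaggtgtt
Acss1: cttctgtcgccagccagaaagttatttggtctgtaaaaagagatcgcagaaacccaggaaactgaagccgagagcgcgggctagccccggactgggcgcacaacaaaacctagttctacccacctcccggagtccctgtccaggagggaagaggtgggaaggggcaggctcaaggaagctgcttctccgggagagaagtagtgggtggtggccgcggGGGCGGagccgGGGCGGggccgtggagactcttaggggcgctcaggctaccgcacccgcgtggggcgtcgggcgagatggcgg
The GC box matched 4 times in Acly, 5 times in Acss2 and 2 times in Acss1, and 35.7% of 32851 promoter windows hold at least 1 match. The CCAAT box matched 1 time in Acly, 1 time in Acss2 and 0 times in Acss1, against 37.4% of all windows with a match. The E-box and the sterol element core, found in 7.15% and 1.24% of windows, had 0 matches in these 3. No matches share a base with each other in these windows. GC content was 68.7% for Acly, 65% for Acss2 and 64.3% for Acss1.

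Per length, Acat1 was the most abundant of the 4 transcripts and Acly came next, with both acetyl-CoA synthetases far below. With the authors' gene lengths, Acat1 averaged 44.5 ± 1.30 RPKM, which is CPM per kilobase of gene length, in DCA cells and 45.2 ± 2.58 in untreated cells of experiment 2 (SD, n = 3 each). In experiment 1 it averaged 43.5 ± 5.50 RPKM in DCA cells and 45.7 ± 0.883 RPKM in untreated cells. Acly averaged 31.1 ± 2.27 RPKM in DCA cells and 33.9 ± 0.270 RPKM in untreated cells of experiment 2, and 20.6 ± 1.67 RPKM in DCA cells and 20.1 ± 1.68 RPKM in untreated cells of experiment 1. The levels of Acat1 and Acly therefore stood apart by more than their spread in all 4 groups.

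Acss2 averaged 3.11 ± 0.427 RPKM in DCA cells and 2.51 ± 0.341 RPKM in untreated cells of experiment 2, while Acss1 averaged 1.88 ± 0.375 and 2.14 ± 0.343 RPKM in the same groups. In experiment 1, Acss2 averaged 1.30 ± 0.432 RPKM in DCA cells and 0.861 ± 0.136 RPKM in untreated cells. Acss1 averaged 1.07 ± 0.404 RPKM in DCA cells and 0.753 ± 0.238 RPKM in untreated cells there. With the authors' lengths, the 2 synthetases thus did not differ beyond their spread in experiment 1. Nor did they in untreated cells of experiment 2 once both SDs are counted. By group mean, Acss2 was above Acss1 under either length, but the size of the gap, and whether it exceeds the spread, rest on the length used. With the authors' lengths, Acss1 was the higher of the 2 in untreated replicate 1 of experiment 1 (0.936 against 0.783 RPKM). The same held in DCA replicates 1 (1.52 against 1.46) and 3 (0.944 against 0.805) of experiment 1, and Acss2 was higher in its other libraries. The authors list 10163 bases for Acss2, while the longest coding transcript with a CCDS entry in GENCODE M21 has 2931 bases. With that length Acss2 averaged 10.8 ± 1.48 RPKM in DCA cells and 8.69 ± 1.18 RPKM in untreated cells of experiment 2, against 2.15 ± 0.427 and 2.44 ± 0.391 RPKM for Acss1. In experiment 1 the same scale gave Acss2 4.49 ± 1.5 RPKM in DCA cells and 2.99 ± 0.470 RPKM in untreated cells, and Acss1 1.22 ± 0.461 and 0.859 ± 0.271 RPKM. On that scale the 2 synthetases stood apart by more than their SDs in every group.

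**Figure D1:**
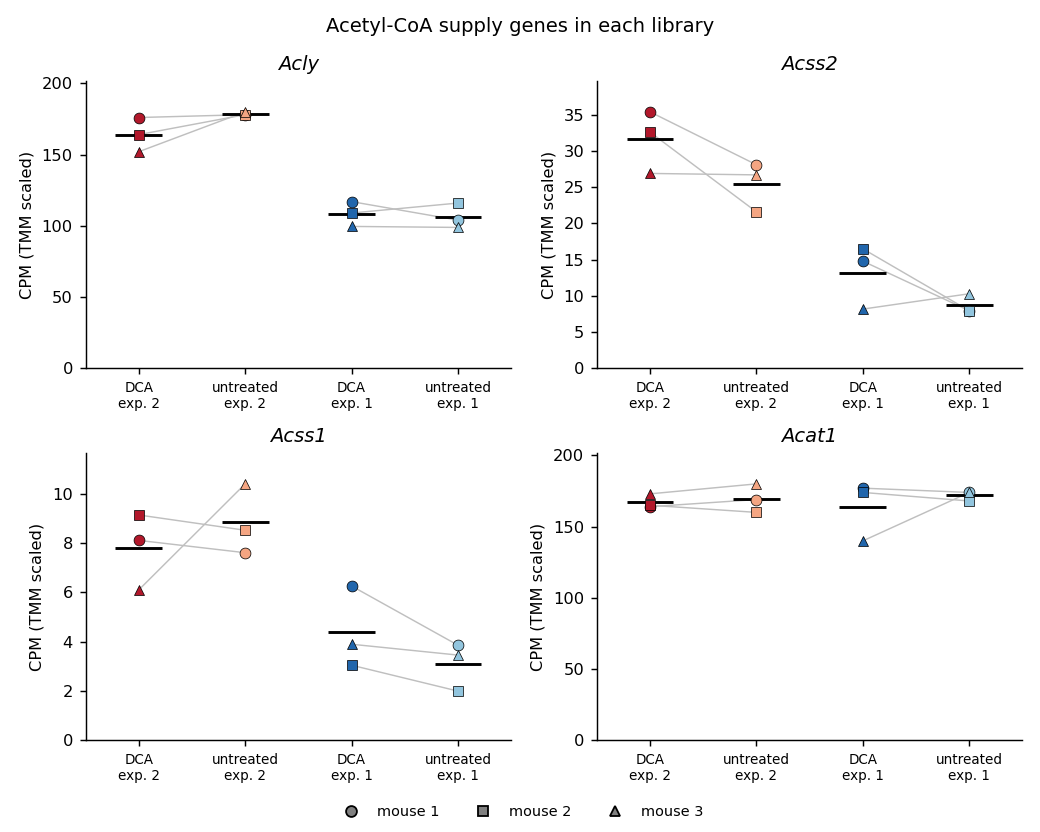
CPM after TMM scaling (vertical axes, from 0) of Acly, Acss2, Acss1 and Acat1 in the 12 libraries, by group; symbols mark mouse 1, 2 and 3, grey lines join the DCA and untreated library of a mouse, and black bars are group means (n = 3). Acly and Acss2 are higher in all 6 libraries of experiment 2 than in those of experiment 1, while Acat1 lies between 140 and 180 CPM throughout.

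Expansion with DCA was the study's main comparison. None of the 4 genes passed the test over both experiments (0 of 4), where edgeR's quasi-likelihood test called 16.8% of all tested genes at an adjusted p under 0.05 (7.01% higher and 9.8% lower with DCA). At an unadjusted p under 0.05 there was 1 of 4, Acss2, beside 30% of all tested genes, and DESeq2 called Acss2 too. The acetate-activating gene Acss2 came nearest and was higher with DCA in 5 of 6 mice. Acly and Acat1 were each at 0.968 of their untreated level. In a bulk sample, fewer cells with a transcript and less transcript per cell cannot be told apart.

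Acly, the enzyme that releases acetyl-CoA from citrate, had 176, 164 and 152 CPM in DCA libraries of mice 1, 2 and 3 of experiment 2, against 178, 178 and 180 CPM in their untreated libraries. The DCA libraries all lay below the untreated ones there, without overlap, though the gene was not called (edgeR adjusted p = 0.491). How many of all tested genes separate like this, between arms or between experiments, is not given here. In experiment 1, Acly had 117, 109 and 99.6 CPM in DCA libraries and 104, 116 and 98.9 CPM in untreated libraries, and these overlapped. The log2 fold change was -0.05 over both experiments (SE 0.06, 95% interval -0.18 to 0.09, adjusted p = 0.694), -0.12 in experiment 2 (SE 0.08, adjusted p = 0.491) and 0.03 in experiment 1 (SE 0.09, adjusted p = 0.852). The interval over both experiments corresponds to a fold of 0.881 to 1.06. Under cyclic loess normalization, a scaling that depends on the level of a gene, the sign over both experiments turned (0.07, limma adjusted p = 0.588), as it did with library totals alone (0.05, edgeR adjusted p = 0.660).

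Acss2, which charges free acetate in the cytosol and nucleus, had 35.4, 32.6 and 26.9 CPM in DCA libraries of experiment 2 and 28.1, 21.6 and 26.7 CPM in untreated ones. In experiment 1 it had 14.8, 16.5 and 8.18 CPM in DCA libraries, against 7.96, 7.96 and 10.3 CPM in untreated libraries. Mice 1 and 2 had higher values with DCA in both experiments, mouse 3 of experiment 2 had nearly equal ones, and mouse 3 of experiment 1 had the lower value with DCA. The groups overlapped in both experiments. Over both experiments the log2 fold change was 0.44 (SE 0.16, 95% interval 0.11 to 0.78, unadjusted p = 0.0123, adjusted p = 0.0648, edgeR). Within the experiments it was 0.31 in experiment 2 (SE 0.21, adjusted p = 0.497, 4.57% of all genes called) and 0.59 in experiment 1 (SE 0.22, adjusted p = 0.0879, 16.7% of all genes called).

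The call on Acss2 turned on the settings. It passed over both experiments with DESeq2 (adjusted p = 0.0286), with no filter on low counts (edgeR, 0.0102), with a filter at 5 CPM in 3 libraries (edgeR, 0.0301) and with library totals in place of TMM (edgeR, 0.0344). Without the DCA library of mouse 3 of experiment 1 the log2 fold change was 0.54 (adjusted p = 0.0156), and without that of mouse 3 of experiment 2 it was 0.51 (adjusted p = 0.0485). With a term per mouse, which pairs the libraries, it was 0.42 (edgeR adjusted p = 0.130). Acss2 also stayed uncalled with RLE factors (edgeR adjusted p = 0.0685), cyclic loess (limma, 0.0982) and limma-voom (0.0791). In all, it was uncalled in 5 of 9 alternatives that kept all libraries and in 10 of 12 fits that left out 1. In the authors' deposited table, Acss2 is listed with a log2 fold change of 0.45 and a false discovery rate of 0.116, and Acly, Acss1 and Acat1 with -0.04, 0.15 and -0.04 and rates of 0.921, 0.793 and 0.923.

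Other transcripts from the Acss2 locus bear on this value, because the strand setting of the read counting is not given in the sources used here. By GENCODE M21, exons of Acss2 overlap exons of Ggt7, Gss and Acss2os, all on the opposite strand. Ggt7, a member of the gamma-glutamyltransferase family, rose with DCA by 1.02 on the log2 scale (SE 0.27, edgeR adjusted p = 0.0194). It was at 10.6 to 13.1 CPM with DCA and 2.21 to 6.02 CPM untreated in experiment 2, and at 0.726 to 1.54 and 0.596 to 0.812 CPM in experiment 1. Under cyclic loess it was no longer called (0.79, limma adjusted p = 0.0800). Gss, glutathione synthetase, was at -0.24 (SE 0.11, adjusted p = 0.174), and Acss2os had 0 counts in all 12 libraries. Whether reads of Ggt7 enter the Acss2 count was not tested.

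Acss1, the mitochondrial acetyl-CoA synthetase, had the fewest reads, 67 to 400 per library, and the widest error. It had 8.11, 9.14 and 6.10 CPM in DCA libraries of experiment 2 and 7.61, 8.52 and 10.4 CPM in untreated ones. In experiment 1 it had 6.26, 3.05 and 3.90 CPM in DCA libraries and 3.86, 2.00 and 3.46 CPM in untreated ones. Its value was higher with DCA in 5 of 6 mice, all 3 of experiment 1 among them, and mouse 3 of experiment 2 was lower by 0.77 on the log2 scale, at 0.587 of its untreated level. The log2 fold change was 0.15 over both experiments (SE 0.22, 95% interval -0.33 to 0.62, adjusted p = 0.728), and without the DCA library of mouse 1 of experiment 1 it was -0.04 (adjusted p = 0.933). It was -0.18 in experiment 2 (SE 0.29, adjusted p = 0.819) and 0.51 in experiment 1 (SE 0.31, adjusted p = 0.292).

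Acat1, the mitochondrial thiolase, had 164, 165 and 173 CPM in DCA libraries of experiment 2 and 169, 160 and 180 CPM in untreated ones, and 177, 174 and 140 CPM in DCA libraries of experiment 1 against 174, 168 and 174 CPM untreated. The library of mouse 3 of experiment 1 with DCA was the lowest of all 12. The log2 fold change was -0.05 over both experiments (SE 0.06, 95% interval -0.18 to 0.08, adjusted p = 0.673, higher in 3 of 6 mice), which corresponds to a fold of 0.883 to 1.06. Without that library it was 0.0011 (adjusted p = 0.994), and its sign also turned under cyclic loess (0.07, limma adjusted p = 0.516) and with library totals (0.05, edgeR adjusted p = 0.641). In experiment 2 the value was -0.02 (SE 0.09, adjusted p = 0.938) and in experiment 1 it was -0.07 (SE 0.09, adjusted p = 0.645).

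**Figure D2:**
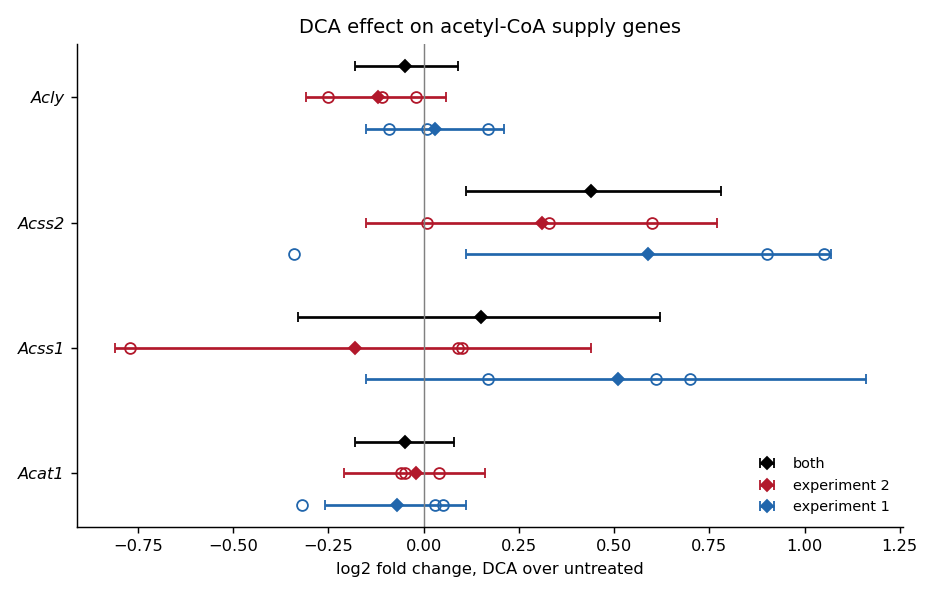
Log2 fold change of DCA over untreated cells (horizontal axis) for the 4 genes; diamonds with bars are edgeR estimates with 95% intervals over both experiments (black, 6 mice), in experiment 2 (red) and in experiment 1 (blue, 3 mice each), and open circles are the single mice. The interval of Acss2 over both experiments runs from 0.11 to 0.78, and those of the other 3 genes span 0.

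Whether DCA acted differently in the experiments was asked of each gene with the difference of its effects, experiment 2 minus experiment 1. None of the 4 was called by edgeR, where 0.331% of all genes were, none had an unadjusted p under 0.05 (14.2% of all genes did), and none was called under any alternative, DESeq2 and limma-voom included. The difference was -0.69 for Acss1 (SE 0.42, 95% interval -1.6 to 0.21, adjusted p = 0.5), -0.28 for Acss2 (SE 0.31, adjusted p = 0.760), -0.16 for Acly (SE 0.12, adjusted p = 0.616) and 0.05 for Acat1 (SE 0.12, adjusted p = 0.913). The interval of Acss1 holds differences of more than 2-fold.

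Ratios of reads within a library need no scaling between libraries, so they were used to set the acetate against the citrate enzyme. There were 20.1, 19.9 and 17.7 reads of Acss2 per 100 reads of Acly in DCA libraries of mice 1, 2 and 3 of experiment 2, against 15.8, 12.1 and 14.8 in their untreated libraries. The DCA libraries all lay above the untreated ones. In experiment 1 the ratio was 12.7, 15.1 and 8.22 with DCA and 7.67, 6.86 and 10.5 untreated, and the arms overlapped through mouse 3. The share of Acss2 was thus higher with DCA in both other mice of experiment 1 and in all 3 of experiment 2. In mouse 3 of experiment 2, Acss2 itself was nearly equal, at 26.9 CPM with DCA and 26.7 CPM untreated. Its ratio differed there through Acly, at 152 CPM with DCA and 180 CPM untreated. Any reads of Ggt7 in the Acss2 count would enter these ratios too, which was not tested. These ratios are given as a description, with no test, and how many other gene pairs separate like this is not given here. Reads of Acss1 per 100 of Acss2 ran from 22.7 to 28 with DCA and from 27.0 to 39.5 untreated in experiment 2, and from 18.5 to 47.6 with DCA and from 25.1 to 48.5 untreated in experiment 1, so they overlapped in both.

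**Figure D3:**
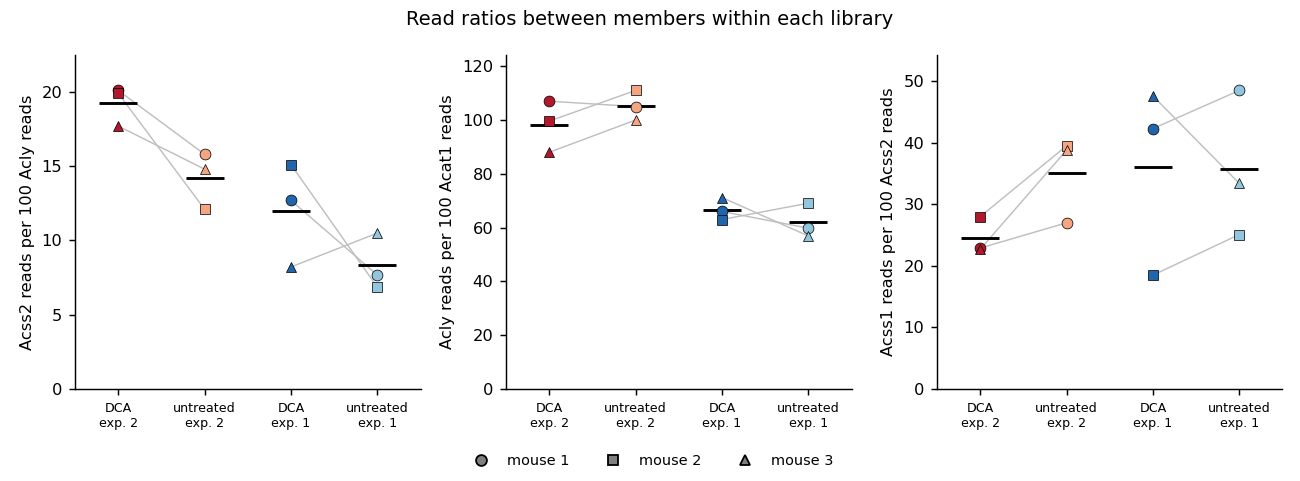
Reads of one gene per 100 reads of another within each library (vertical axes, from 0), for Acss2 over Acly, Acly over Acat1 and Acss1 over Acss2; symbols mark the mice, grey lines join the libraries of a mouse and black bars are group means (n = 3). Acss2 over Acly is 17.7 to 20.1 with DCA and 12.1 to 15.8 untreated in experiment 2, and Acly over Acat1 separates the experiments.

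Between the experiments, 3 of the 4 genes differed. Acly, Acss2 and Acss1 were higher in experiment 2 than in experiment 1 in untreated cells, and the same 3 were higher in DCA cells. Such calls were common, with 51.8% of all genes called in untreated cells (26.7% higher and 25.2% lower in experiment 2) and 52.3% in DCA cells (28.1% higher and 24.1% lower). Both comparisons come from the same 6 mice and from 1 fit with a shared spread, so they are not independent of each other. The median of all tested genes was 0.11 on the log2 scale in each, and the TMM factors were above 1 and at most 1.17 in experiment 2 and between 0.818 and 0.934 in experiment 1.

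Acly was higher in experiment 2 by 0.59 on the log2 scale in DCA cells (SE 0.09, edgeR adjusted p = 3.31e-05) and by 0.75 in untreated cells (SE 0.09, adjusted p = 3e-06), with no overlap of libraries in either. Its size moved with the scaling, to 0.90 in DCA cells and 1.16 in untreated cells under cyclic loess and to 0.93 and 1.18 with library totals, all called. Acss2 was higher by 1.26 in DCA cells (SE 0.22, adjusted p = 0.000210), a 2.40-fold difference, and by 1.54 in untreated cells (SE 0.22, adjusted p = 3.75e-05), a 2.91-fold difference, again with no overlap. Ggt7, its overlapping neighbour, was also higher in untreated cells of experiment 2, by 2.79 (adjusted p = 2.99e-05), as was Gss, by 0.66 (adjusted p = 0.00245). Acss1 was higher by 0.82 in DCA cells (SE 0.30, adjusted p = 0.0316), where the groups overlapped, and by 1.51 in untreated cells (SE 0.30, adjusted p = 0.000696), where they did not. The share of all tested genes that separate without overlap is not given here, so separation is no trait particular to these genes. The call on Acss1 in DCA cells was lost under cyclic loess (0.58, limma adjusted p = 0.115). It was also lost when 1 of 5 libraries was left out, with adjusted p from 0.0519 to 0.132. These were DCA replicates 2 and 3 of experiment 1, and untreated replicate 2 and DCA replicates 1 and 2 of experiment 2 (0.62, 0.74, 0.80, 0.77 and 0.67).

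For Acat1 the answer depended on the scaling. It was at 0.03 in DCA cells (SE 0.09, adjusted p = 0.792) and at -0.02 in untreated cells (SE 0.09, adjusted p = 0.885) with TMM. Under cyclic loess it was at 0.40 and 0.45 (limma adjusted p = 0.00154 in DCA cells and 0.00068 in untreated cells). With library totals alone it was at 0.37 and 0.41 (edgeR adjusted p = 0.00262 and 0.00123), below the medians of all genes under that scaling, 0.45 in DCA cells and 0.53 in untreated cells. Independent of scaling, there were 88.0 to 107 reads of Acly per 100 of Acat1 in DCA libraries of experiment 2 against 63.0 to 71.2 in those of experiment 1. In untreated libraries the ratio was 100 to 111 in experiment 2 and 56.9 to 69.1 in experiment 1. Acly was thus higher relative to Acat1 in every library of experiment 2.

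**Figure D4:**
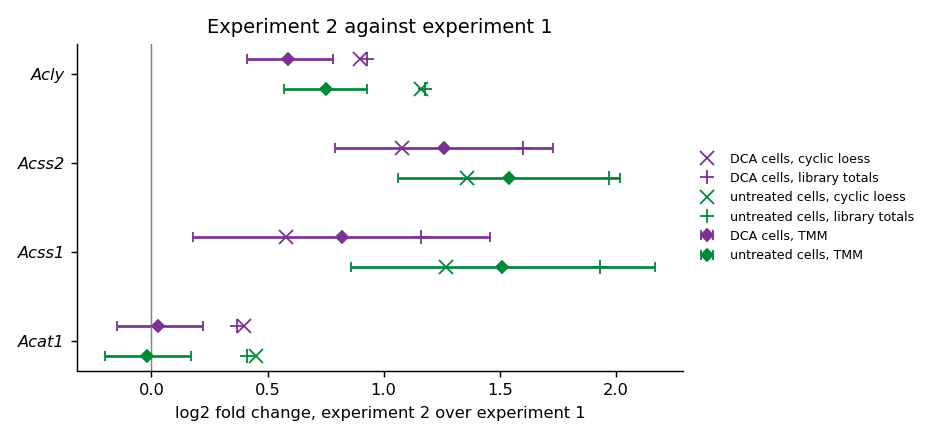
Log2 fold change of experiment 2 over experiment 1 (horizontal axis) for the 4 genes in DCA cells (purple) and untreated cells (green); diamonds with bars are edgeR estimates with TMM and 95% intervals (n = 3 libraries per group), crosses are cyclic loess values and plus signs are values with library totals. Acly, Acss2 and Acss1 lie above 0 under all 3 scalings, and Acat1 moves from -0.02 to 0.45 in untreated cells with the scaling.

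Genes of the surrounding routes were followed with 6 lists of 47 genes in all, of which 42 were tested. With DCA over both experiments, 3 of them rose and 5 fell, so that 19% were called beside 16.8% of all genes. The median log2 fold change was -0.04, against -0.02 over all tested genes. For the difference between the experiments edgeR called 0 of the 42, with 1 at an unadjusted p under 0.05, where 14.2% of all genes were.

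On the citrate route, 1 of 6 genes rose and 1 fell (median -0.04). Cs, citrate synthase, which makes the citrate in mitochondria, fell by 0.31 (SE 0.05, edgeR adjusted p = 0.00111, lower in 6 of 6 mice), to 161 ± 39.5 CPM with DCA against 199 ± 41.7 CPM untreated (SD, n = 6 each). Me1, the cytosolic malic enzyme, which turns malate into pyruvate and makes NADPH, rose by 1.80 (SE 0.47, adjusted p = 0.0153, higher in 6 of 6 mice) at a low level, 2.27 ± 1.25 CPM with DCA against 0.724 ± 0.564 CPM untreated. Slc25a1, the carrier that exports citrate to Acly, was at -0.13 (SE 0.09, adjusted p = 0.379). The SDs over 6 libraries given for Cs and Me1, and for genes below, also hold the difference between the experiments. For Cs, experiment 2 was higher by 0.65 on the log2 scale in DCA cells and by 0.55 in untreated cells.

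Of the acetate genes, 5 of 7 were tested, 0 rose and 1 fell (median 0.09). Slc16a1, a monocarboxylate transporter that carries lactate, pyruvate and acetate, fell by 0.27 (SE 0.07, adjusted p = 0.0213), to 70.9 ± 8.47 CPM with DCA against 85.6 ± 12.6 CPM untreated. Its call was lost under cyclic loess (-0.17, limma adjusted p = 0.138), with library totals (-0.17, 0.140) and when 1 of 4 libraries was left out (adjusted p 0.0527 to 0.0699). Those were untreated replicate 1 of experiment 1, and untreated replicates 1 and 2 and DCA replicate 2 of experiment 2. Sirt3, the mitochondrial deacetylase that activates Acss1, was at 0.09 (SE 0.12, adjusted p = 0.674), and at -0.0034 without untreated replicate 1 of experiment 1. Acss3 and Acot12, a further synthetase and an acetyl-CoA hydrolase, stayed at or below 0.0916 CPM and were not tested.

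Among the other thiolases, 6 of 7 were tested, 1 rose and 1 fell (median -0.12). Scp2, whose long form is a peroxisomal thiolase, rose by 0.34 (SE 0.06, adjusted p = 0.00244, higher in 6 of 6 mice). Hadhb, the thiolase subunit of the mitochondrial trifunctional protein, fell by 0.26 (SE 0.08, adjusted p = 0.0387, lower in 6 of 6 mice). That call was lost under cyclic loess (limma 0.141), with library totals (edgeR 0.168), with the stricter filter (0.0506) and with a term per mouse (0.0645). It was also lost in 8 of the 12 fits that left out 1 library, whose adjusted p went up to 0.0843.

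Of 12 tested genes of isoleucine breakdown and ketone bodies, the routes through Acat1, 1 rose and 2 fell (median -0.01). Bcat1, the cytosolic branched-chain aminotransferase, fell by 0.41 (SE 0.09, adjusted p = 0.0067), to 44.7 ± 6.65 CPM with DCA against 59.4 ± 8.95 CPM untreated. Echs1, the enoyl-CoA hydratase, fell by 0.20 (SE 0.06, adjusted p = 0.0324), and Hsd17b10, the dehydrogenase just before Acat1 in isoleucine breakdown, rose by 0.23 (SE 0.07, adjusted p = 0.0490). Echs1 lost its call under cyclic loess (limma 0.287), library totals (0.298), no filter (0.191), the stricter filter (0.0801) and a term per mouse (0.0616), and Hsd17b10 lost it with RLE factors (0.0526). Leaving out 1 library ended the call on Echs1 in 9 of 12 fits and that on Hsd17b10 in 8. Cs, Scp2 and Bcat1 were called under every alternative run. Me1 was called under every alternative in which it was tested, but the filter at 5 CPM in 3 libraries took it out. Oxct1, which activates ketone bodies before the Acat1 step, was at 0.02 (SE 0.05, adjusted p = 0.888).

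Downstream, edgeR called 0 of 5 cytosolic users of acetyl-CoA (median -0.12), with 1 at an unadjusted p under 0.05, beside the 30% of all genes. Fasn, fatty acid synthase, was at -0.12 (SE 0.08, adjusted p = 0.361), and Acaca, which makes malonyl-CoA, was at -0.13 (SE 0.11, adjusted p = 0.493). Of the 8 tested regulators edgeR called 0 (median 0), with 1 at an unadjusted p under 0.05. They included Srebf1 at 0.14 (SE 0.09, adjusted p = 0.323) and Srebf2 at -0.11 (SE 0.07, adjusted p = 0.316), whose proteins, SREBP-1 and SREBP-2, are known activators of Acly and Acss2.

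**Figure D5:**
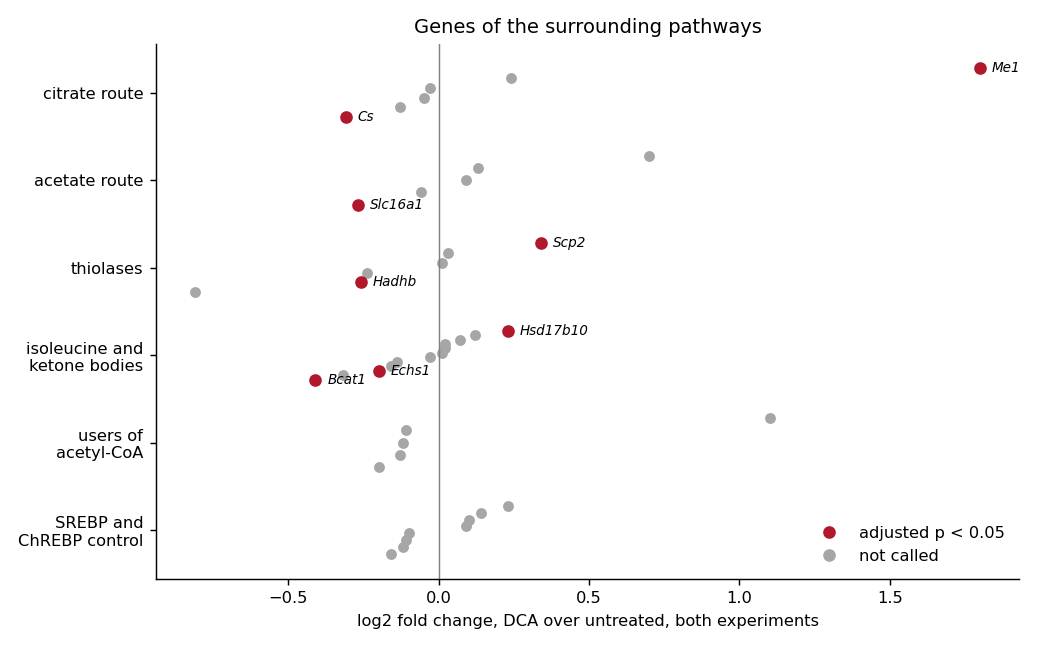
Log2 fold change of DCA over untreated cells over both experiments (horizontal axis) for the 42 tested genes of 6 lists (rows); each point is 1 gene from 12 libraries, red with its name where the edgeR adjusted p was under 0.05. The 8 called genes are 3 higher and 5 lower, and Me1 at 1.80 lies farthest to the right.

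Between the experiments, 19 of the 42 were higher and 9 lower in DCA cells of experiment 2 (66.7% called, beside 52.3% of all genes), and 18 were higher and 8 lower in untreated cells (61.9% called, beside 51.8%). Hsd17b10 was lower in experiment 2, by log2 values of -1.51 in DCA cells (adjusted p = 1.8e-08) and -1.57 in untreated cells (adjusted p = 1.11e-08). Slc25a1 was higher in experiment 2 by 1.96 in DCA cells (SE 0.13, edgeR adjusted p = 8.05e-09) and by 1.72 in untreated cells (adjusted p = 2.7e-08). Srebf1 was higher by 1.01 in DCA cells (adjusted p = 6.14e-06) and by 1.26 in untreated cells (adjusted p = 5.91e-07), and Srebf2 by 0.68 (adjusted p = 2.63e-05) and 0.87 (adjusted p = 2.09e-06). Of the 8 tested regulators, 4 were higher and 1 lower in DCA cells of experiment 2, and 4 higher and 2 lower in untreated cells.

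The genes most like each of the 4 in pattern were found by Pearson's r of log2 CPM over the 12 libraries, after each experiment's mean was taken off, among 7629 genes. For Acss2 they were Fhip1b (0.95), Oip5os1 (0.93) and Ppp2r3a (0.92), of which Ppp2r3a rose with DCA by 0.59 (adjusted p = 0.0238). For Acss1 they were Lcn4, Camk2g and Dock11 (0.91 each), for Acly they were Kdm6a (0.87), Gphn (0.86) and Zfp444 (0.85), and for Acat1 they were Vps45 (0.88), Usp46 (0.86) and Cacfd1 (0.85). Among themselves the 4 were less alike, from 0.07 for Acss1 and Acat1 to 0.37 for Acss2 and Acat1. All these points share libraries and their depth, and the best of many genes will reach a high r in 12 libraries, so the values only rank likeness.

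Markers of other spleen cells were checked beside these results. The summed level of 4 B cell markers was 28.4 to 33.5 CPM with DCA and 21.2 to 24.1 CPM untreated in experiment 2, and 29.3 to 42.0 CPM with DCA and 15.0 to 22.3 CPM untreated in experiment 1. Nearly all of it was Cd79b, at 15.0 to 41.9 CPM, while Ms4a1, Pax5 and Cd79a stayed at or below 0.311 CPM. The 5 myeloid markers summed to 0.609 to 2.53 CPM with DCA and 0.0305 to 0.485 CPM untreated in experiment 2, and to 1.6 to 3.44 CPM and 1.17 to 2.07 CPM in experiment 1, where only Cd14 had any counts. The 2 NK cell markers summed to 0.0504 to 1.15 CPM with DCA and 0.467 to 1.1 CPM untreated in experiment 2, and to 9.14 to 12.9 CPM with DCA and 5.93 to 14 CPM untreated in experiment 1. Klrb1c carried this difference, at 0.0504 to 1.15 CPM in experiment 2 and 5.77 to 14 CPM in experiment 1. The other NK marker, Ncr1, stayed at or below 0.156 CPM throughout. The 5 CD8 T cell markers summed to 3230 to 3390 CPM with DCA and 4000 to 4480 CPM untreated in experiment 2, and to 4730 to 5050 CPM and 4380 to 5120 CPM in experiment 1. Of these, Cd3g was at 1140 to 1680 CPM in experiment 2 and 2110 to 2530 CPM in experiment 1. Cd3d was also lower in experiment 2, at 785 to 1080 against 1210 to 1560 CPM. Cd8a and Cd3e were higher there, at 479 to 662 against 335 to 416 CPM and 286 to 388 against 90.6 to 116 CPM. Cd8b1 overlapped, at 492 to 690 and 543 to 603 CPM. The sums were 5.19 to 8.17 CPM for CD4 T cell markers over all libraries and at most 1.53 CPM for erythroid ones. Between 23635 and 26571 genes had reads in libraries of experiment 2, against 18382 to 19551 in those of experiment 1. Klrb1c, and with it the NK sum, Cd3g, Cd3d, Cd8a, Cd3e and the number of genes with reads thus separated the experiments, as Acly and Acss2 did. The B cell sum, nearly all Cd79b, was higher with DCA without overlap in both experiments. In experiment 2 the arms also did not overlap in the myeloid sum, higher with DCA, and in the CD8 sum, lower with DCA. The part of these measures in the values of the 4 genes was not tested.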

How the data were processed

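The authors deposited unnormalized read counts for 56748 genes in 12 libraries. The submitters' processing notes name fastp 0.23.2, STAR 2.7.10a, edgeR 3.36.0 and GRCm39. No source used here states the read counter, annotation release or strand setting. A table of the authors' own comparison was also deposited, with log2 fold changes, log2 CPM, p-values, false discovery rates and the gene lengths used for RPKM, per the file headers. All value columns were mapped (0 left out).

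Tests used edgeR 4.0.16 (R 4.3.3) on the counts, with TMM factors, filterByExpr by the 4 groups, quasi-likelihood fits and Benjamini-Hochberg adjustment over 15688 genes at 0.05. Every p is from this test unless another tool is named. The fit for DCA in all 12 libraries had an experiment term, and other contrasts came from 1 fit of 4 group means. SE is the absolute log2 fold change over the square root of F, and 95% intervals use the moderated degrees of freedom. The code was tested on simulated data.

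The members and lists were chosen with earlier results of these data known. A few listed genes are not reported here. Of the listed genes, those called with DCA and a few direct neighbours of a member are named. Likeness used log2 CPM with a prior count of 2. Alternatives were RLE factors, cyclic loess and limma-voom (limma 3.58.1), DESeq2 1.42.0, 2 other filters, a term per mouse, fits within 1 experiment and each library left out. Library totals without TMM, and limma with TMM, were added after seeing the data. Pairing comes from the labels, which give each mouse a library in both arms. Deviations from group means correlated at 0.0443 to 0.0834 within mice and at -0.0689 to -0.00438 between them. Replicates differed beyond sampling noise (chi-square per degree of freedom 10.8 to 29.8). Libraries of 28039699 to 41051066 reads gave the 4 genes 67 to 6950 reads each, and intervals from counts would cover counting error only.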

Additional observations from a re-analysis of the deposited data

How the results depend on the processing

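Signs of log2 values near 0 turned with the scaling; values follow, and causes were not tested. Over both experiments, cyclic loess gave Acly 0.07, Acat1 0.07 and Slc16a3 0.03, and library totals gave 0.05, 0.05 and 0.03. For Acat1, cyclic loess gave 0.09 in experiment 1, 0.05 in experiment 2, -0.04 for the difference, and 0.40 in DCA cells and 0.45 in untreated cells between the experiments. Library totals gave Acat1 0.07 in experiment 1, 0.03 in experiment 2, -0.04 for the difference, and 0.37 in DCA cells and 0.41 in untreated cells between the experiments. The stricter filter gave Acat1 0.02 in experiment 1, -0.04 for the difference, and -0.0043 in DCA cells and 0.04 in untreated cells between the experiments. Acat1 was at 0.03 between untreated cells with no filter, and at 0.0039 in experiment 1 from its 6 libraries alone. Acss1 between DCA cells was 0.58 under cyclic loess. Acss2 was called over both experiments and in experiment 1 with no filter (0.45 and 0.59), the stricter filter (0.49 and 0.68), DESeq2 (0.44 and 0.60) and library totals (0.54 and 0.73). With a replicate block (a term per mouse), Acss2 was 0.42 over both experiments, 2094 genes were called there against 2638 without it, 24 genes were called for the difference against 52, and no DCA call on the 4 genes changed. For the difference, 30 genes were called under cyclic loess, 566 with no filter and 458 with DESeq2. In experiment 2, against 717 genes, 1116 were called with no filter, 1171 with limma-voom, 1512 with DESeq2 and 1564 from its 6 libraries alone, and in experiment 1 that last setting gave 1251 against 2622. Leaving out 1 library at a time gave, over both experiments, Acss2 0.35 to 0.54, Acss1 -0.04 to 0.26, Acat1 -0.07 to 0.0011, Sirt3 -0.0034 to 0.14 and Slc16a3 -0.12 to 0.02. In experiment 1 it gave Acss2 0.39 to 0.84 (called without DCA replicate 3), Acly -0.03 to 0.10 and Acat1 -0.13 to 0.03. In experiment 2 it gave 210 to 824 genes called, and for the difference 1 to 217 genes and Acat1 -0.08 to 0.11. Between the experiments it gave Acss1 0.62 to 1.17 and Acat1 -0.07 to 0.10 in DCA cells, and Acat1 -0.03 to 0.09 in untreated cells. Over the 4 genes, 447 of 504 alternative values kept direction and call, and 38 turned sign. Those that turned include Acat1 between untreated cells under cyclic loess (0.45) and library totals (0.41), which also passed the threshold. Of the values that kept their sign, 13 passed the threshold where the reported value had not and 6 no longer passed it. Acss1 had the fewest reads, 67 to 400 a library, and its CV within groups was 16% to 37.9%.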
